A study of Mus musculus with 4 samples.

Results

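Clusters of neighbouring SOX3 binding sites were examined in mouse neural progenitor (NP) cells. Overlapping peaks of the 3 SOX3 ChIP-Seq replicates merged into 51271 regions, of which 5358 held a peak of every replicate and are called common regions here. Common regions of 1 chromosome were chained when the gap to the next was within the distance often used to stitch enhancers. That limit fell between 12456 bp, the widest gap kept, and 12526 bp, the narrowest left apart. Chains of 2 or more regions numbered 435, and they held 1091 of the 5358 common regions, or 20.4% (95% Wilson interval 19.3 to 21.5%). The other 4267 common regions stood alone and are called single regions. The chains were chosen by where the peaks lie and by the calls of every replicate, so their number, spacing and scores are described without a test. The number moved with the peak lists: when peaks were needed in the other two replicates only, chains numbered 714 without replicate 1 and 781 without replicate 2, and 172 chains were left when every peak had to reach a p-value of 1e-10.

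The cells came from R1 embryonic stem cells, an established mouse line, cultured as monolayers in N2B27 medium for 4 days to direct them to a neural fate. Chromatin was precipitated with a goat polyclonal antibody against human SOX3, and 3 biological replicates of this 1 group were sequenced with 1 input sample that served as the background for peak calling. All the samples share the line, the medium and the day of culture, and no sample lacked SOX3 or used another antibody. Peak positions cannot check the cell type against its markers. The lists held 18816, 8096 and 40543 peaks in replicates 1, 2 and 3. Each peak carries a MACS score of 10 times the negative log10 of its p-value, and scores are not scaled between replicates. The lists give no read counts, so depth is unknown and scores are given with their percentile, the share of the same list with a score at or below them.

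SOX3 belongs to the SOXB1 subgroup of SOX transcription factors, which are expressed in neural progenitors and share one kind of DNA-binding domain, the HMG box. Enhancers of developmental regulators often lie in groups around the gene or far from it, and SOX proteins commonly bind there beside POU factors. Histone genes also lie in groups, as do many tandem repeats, so peaks can be close neighbours at repeated sequence as well as at single-copy enhancers.

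Stretches from the peaks below show the sequence of chains at neural regulators beside contrasts from histone and repeated sequence. Each is up to 300 bases around the middle of the replicate 3 peak of the region with the highest lowest percentile of its chain, read 5′ to 3′ on the plus strand of mm9. Capitals mark, on either strand, the SOX words AACAAA or AACAAT and GACAAA or GACAAT, the POU octamers ATGCAAAT or ATGCTAAT, and the SOX/POU word, a fixed pattern that joins a SOX part to a POU part and can overlap the other words. The first 8 come from chains at genes of neural lists, the next from a histone chain and the last pair from chains of mostly repeated sequence.
Epha4, intron, chr1:77499251-77499550: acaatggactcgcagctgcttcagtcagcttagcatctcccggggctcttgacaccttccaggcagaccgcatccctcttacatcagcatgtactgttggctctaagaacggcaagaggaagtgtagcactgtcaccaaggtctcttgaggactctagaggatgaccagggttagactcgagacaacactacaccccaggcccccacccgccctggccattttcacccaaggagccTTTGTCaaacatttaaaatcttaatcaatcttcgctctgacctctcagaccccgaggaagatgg
Sall1, intergenic, chr8:91527490-91527789: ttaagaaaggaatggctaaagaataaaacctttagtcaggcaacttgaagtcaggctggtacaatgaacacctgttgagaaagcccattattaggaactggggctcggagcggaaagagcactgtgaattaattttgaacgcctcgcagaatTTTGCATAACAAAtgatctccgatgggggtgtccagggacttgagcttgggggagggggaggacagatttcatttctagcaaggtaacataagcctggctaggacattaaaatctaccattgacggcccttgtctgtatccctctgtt
Sox9, intergenic, chr11:112672467-112672766: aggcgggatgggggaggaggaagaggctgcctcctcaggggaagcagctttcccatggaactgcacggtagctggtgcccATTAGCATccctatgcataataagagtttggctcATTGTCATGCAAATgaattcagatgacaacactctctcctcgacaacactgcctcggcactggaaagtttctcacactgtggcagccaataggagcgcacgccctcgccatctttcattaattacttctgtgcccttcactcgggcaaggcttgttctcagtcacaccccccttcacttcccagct
Sox2, intergenic, chr3:34552824-34553123: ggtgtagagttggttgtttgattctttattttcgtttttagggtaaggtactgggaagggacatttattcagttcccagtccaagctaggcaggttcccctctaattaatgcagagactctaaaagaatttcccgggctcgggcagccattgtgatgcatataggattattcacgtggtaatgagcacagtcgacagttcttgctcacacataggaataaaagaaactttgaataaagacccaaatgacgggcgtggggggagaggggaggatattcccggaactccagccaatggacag
Sox13, intergenic, chr1:135389092-135389391: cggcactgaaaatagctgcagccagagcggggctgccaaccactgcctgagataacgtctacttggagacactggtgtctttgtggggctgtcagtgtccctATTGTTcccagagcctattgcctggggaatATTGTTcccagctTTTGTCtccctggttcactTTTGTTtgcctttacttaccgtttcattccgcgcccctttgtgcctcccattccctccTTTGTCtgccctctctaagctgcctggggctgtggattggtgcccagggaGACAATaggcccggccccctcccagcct
Pax6, intergenic, chr2:105456550-105456849: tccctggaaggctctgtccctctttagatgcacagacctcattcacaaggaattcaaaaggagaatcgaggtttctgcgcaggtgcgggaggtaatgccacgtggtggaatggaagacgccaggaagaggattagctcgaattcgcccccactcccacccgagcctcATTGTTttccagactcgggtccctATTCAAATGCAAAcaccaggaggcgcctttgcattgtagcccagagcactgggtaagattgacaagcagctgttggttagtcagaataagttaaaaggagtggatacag
Hes5, promoter, chr4:154334757-154335014: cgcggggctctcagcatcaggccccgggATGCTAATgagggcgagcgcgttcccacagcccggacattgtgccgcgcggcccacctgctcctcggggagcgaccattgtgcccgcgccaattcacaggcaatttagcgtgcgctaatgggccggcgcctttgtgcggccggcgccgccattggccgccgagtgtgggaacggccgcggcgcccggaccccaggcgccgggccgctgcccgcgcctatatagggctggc
Notch1, exon of a retained intron transcript, chr2:26356085-26356336: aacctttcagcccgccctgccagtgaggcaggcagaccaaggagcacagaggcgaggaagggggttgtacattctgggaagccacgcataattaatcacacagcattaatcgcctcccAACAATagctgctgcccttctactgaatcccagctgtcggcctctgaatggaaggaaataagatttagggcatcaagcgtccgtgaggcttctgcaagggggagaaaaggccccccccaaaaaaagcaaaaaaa
Hist1h3d, histone chain, chr13:23667666-23667965: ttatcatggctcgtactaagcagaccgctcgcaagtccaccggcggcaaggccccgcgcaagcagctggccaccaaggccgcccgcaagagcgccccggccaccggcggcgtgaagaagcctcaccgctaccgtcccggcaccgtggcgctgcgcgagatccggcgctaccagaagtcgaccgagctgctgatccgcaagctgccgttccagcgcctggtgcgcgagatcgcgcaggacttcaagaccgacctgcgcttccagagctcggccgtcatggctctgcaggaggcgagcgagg
Repeat chain between Ezh2 and Pdia4, chr6:47694407-47694589: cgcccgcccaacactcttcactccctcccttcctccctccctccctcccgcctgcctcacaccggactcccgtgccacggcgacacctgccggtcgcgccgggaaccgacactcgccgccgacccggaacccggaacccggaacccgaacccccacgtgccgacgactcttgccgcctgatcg
Repeat chain at Ifnz, chr4:88439425-88439626: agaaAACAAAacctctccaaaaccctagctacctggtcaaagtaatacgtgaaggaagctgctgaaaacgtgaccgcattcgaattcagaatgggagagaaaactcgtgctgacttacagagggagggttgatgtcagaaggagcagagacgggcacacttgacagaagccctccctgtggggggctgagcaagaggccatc

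The Sall1, Sox9 and Pax6 stretches each hold a SOX/POU word. The stretch at Sox13 holds 3 words AACAAA or AACAAT and 3 words GACAAA or GACAAT. The Sox2 stretch holds none of the marked words, but it holds CATTGT. On the other strand CATTGT reads ACAATG, a spelling of ACAAWR (R is A or G), the SOX consensus that the paper names. The SOX/POU word overlaps AACAAA or AACAAT at Sall1, and both GACAAA or GACAAT and an octamer at Sox9. At Pax6 it overlaps none of the other words. The histone stretch is almost wholly coding sequence of Hist1h3d, and neither it nor the stretch between Ezh2 and Pdia4 holds a marked word. The stretch at Ifnz holds 1 word AACAAA or AACAAT.

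Most chains were pairs. Chains of 2 regions numbered 343 of 435 (78.9%, 95% interval 74.8 to 82.4%), those of 3 numbered 53, and the largest held 21. Only 24 chains held 5 or more regions, yet they contained 186 of the 1091 chained regions (17.1%). The median span was 5641 bp (interval of the median 4792 to 6371 bp), from 338 to 68665 bp. The 656 gaps inside chains had a median of 2843.5 bp, with quartiles of 489.8 and 6529.5 bp. The span followed the chaining distance: its median was 2693 bp when regions were chained at 5 kb and 10655.5 bp at 25 kb.

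Each chain was put in 1 of 4 classes by the genes and the sequence in it. A chain was a histone chain when the start of a histone gene lay within it or within 2000 bp. It was mostly multi-copy when over 50% of the 50-base words of its regions occur more than once in the reference. It was a neural regulator chain when a gene of 5 neural lists, 324 annotated genes in all, was nearest to a region or overlapped the span. By this order 12 chains (2.76%) were histone chains with 65 regions, 76 (17.5%) were mostly multi-copy with 260 regions, and 56 (12.9%, interval 10.1 to 16.4%) were neural regulator chains with 127 regions. The remaining 291 chains (66.9%) held 639 regions. Mostly multi-copy chains numbered 182 without replicate 1 and 131 without replicate 2, neural regulator chains 73 and 83, and the remaining chains 447 and 555. With every peak at 1e-10 or less these classes had 21, 22 and 120 chains and histone chains numbered 9.

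Chains of 3 or more regions made up 12 of 56 neural regulator chains (21.4%), 45 of 291 other chains (15.5%), 25 of 76 mostly multi-copy chains (32.9%) and 10 of 12 histone chains (83.3%). No neural regulator chain held more than 4 regions, whereas histone chains reached 18 and mostly multi-copy chains 21. The median gap was 3131 bp in neural regulator chains, 4073 bp in other chains, 1473.5 bp in mostly multi-copy chains and 901 bp in histone chains. Median spans were 4643 bp in neural regulator chains, 5873 bp in other chains, 5106.5 bp in mostly multi-copy chains and 6728.5 bp in histone chains.

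**Figure D1:**
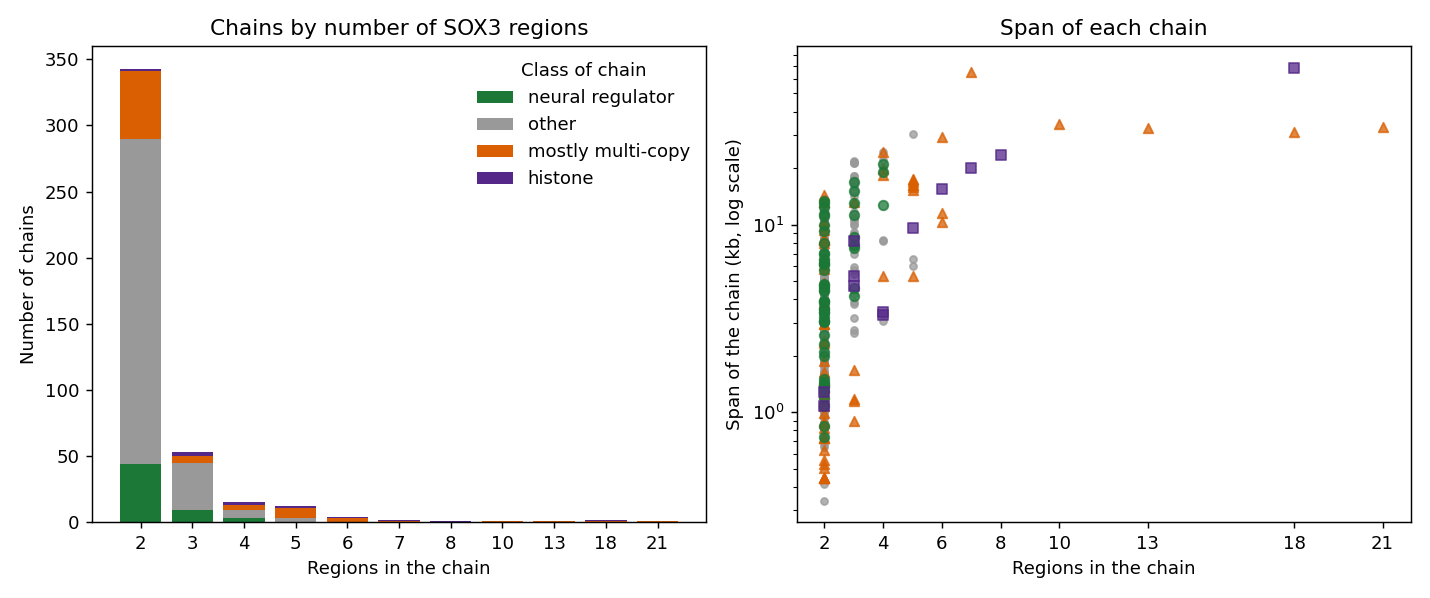
Left, the number of chains (y axis) by the number of SOX3 regions in a chain (x axis), stacked by class. Right, the span of each chain in kb on a log scale (y axis) against its number of regions (x axis), 1 point per chain. All the chains of 6 or more regions belong to the mostly multi-copy or histone class, and neural regulator chains stop at 4 regions.

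Genes of the neural lists were nearest to 11.3% of chained regions (interval 9.53 to 13.3%) and to 264 of 4267 single regions (6.19%, interval 5.50 to 6.95%). With mostly multi-copy regions set aside the shares were 14.9% and 6.79%. Regions of 1 chain mostly share their nearest gene, so these intervals are too narrow for the chained regions. The listed genes are 1.45% of protein-coding genes in the annotation, but no share expected from gene spacing was computed. A listed gene was hosted by or nearest to a chain for 5 of 24 SOX and POU genes, 17 of 135 patterning factors, 3 of 38 bHLH, Hes, Hey and Id genes, 23 of 110 signalling and guidance genes and 5 of 21 progenitor markers. Over all 22238 protein-coding symbols it was 534, or 2.40%. With every peak at 1e-10 or less, neural regulator chains were left at 21 listed genes, namely Sox2, Sox9, Sox13, Pax3, Pax6, Gbx2, Nkx6-1, Msx3, Irx3, Gli2, Zfhx3, Sall1, Sall4, Rfx4, Wnt8a, Fzd7, Fgfr2, Notch1, Epha4, Ephb1 and Efnb2. The chains described at other listed genes, such as Meis2, Hes5, Sox4, Otx2, Insm1 and Spry2, were not kept at that bound.

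Among SOX and POU genes, chains lay at Sox2, Sox9, Sox13, Sox4 and Pou3f1. Sox2 encodes a SOXB1 factor that maintains neural progenitors. Distances are from the middle of a region to the nearest annotated transcript start of a gene, which can be an internal one. The Sox2 chain, chr3:34552640-34567797, held 3 intergenic regions 3877 to 18497.5 bp from the start of Sox2. The region closest to the gene had scores of 1003.6, 607.5 and 1030.9 in replicates 1, 2 and 3, at percentiles 99.1, 98.2 and 99.6. The other two regions had scores of 255.9 and 352.2 in replicate 1, 153.5 and 165.1 in replicate 2, and 216.5 and 272.6 in replicate 3. The closest region was thus the top of the chain in every replicate, by 2.85, 3.68 and 3.78 times the next score.

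At Sox9, which encodes a SOXE factor of progenitors and glia, 3 intergenic regions lay 16913 to 33459 bp from the start in chr11:112662762-112679684. The middle region was the highest in every replicate, with scores of 412.6, 184.9 and 300.8. It and the region closest to the gene each held a SOX/POU word. Sox13 encodes a SOXD factor, and its chain, chr1:135388850-135397470, lay 68278.5 to 76234 bp from its start. The first region there scored 2012.0, 1514.5 and 3048.8, percentiles 99.8, 99.7 and 99.9, and held 5 words AACAAA or AACAAT over its 766 bp. All 3 regions of the Sox13 chain were at or above percentile 89.2 in every replicate. The Sox4 chain was a pair 168824 and 170477 bp from the gene, with scores of 353.5, 248.9 and 375.1 in the higher region and of 94.91, 90.93 and 153.7 in the lower. Pou3f1, a POU factor of the neural plate and of glia, had a pair 4485 and 10238 bp from its start, scoring 288.1, 133.1 and 219.7, and 131.9, 55.55 and 116.1. Sox3 itself had no chain, and Sox1 was not among the annotated genes used.

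Among the 17 patterning factors with chains, the largest chains were at Meis2, a TALE homeodomain factor, and at Sall1, a zinc finger factor, with 4 regions each. The 4 Meis2 regions, chr2:115684932-115705844, lay 1 outside the gene, 13420.5 bp from a start, and 3 in its introns. The region outside scored 396.9, 206.4 and 352.2. In the third region the score was 51.43 in replicate 1, near the calling threshold of 50, but 112.3 and 256.9 in the other replicates, percentiles 4.05, 67.1 and 95.5. The Sall1 regions, chr8:91527210-91539907, were all intergenic, 28398 to 40534 bp from the start, and each held a word of both SOX spellings. From the farthest to the nearest, they scored 456.8, 411.2, 274.1 and 85.25 in replicate 1. The scores were 308.7, 179.6, 183.2 and 85.28 in replicate 2 and 625.3, 224.4, 427.7 and 314.9 in replicate 3. The farthest region was the highest in every replicate, and the nearest was the lowest in replicates 1 and 2 but not in replicate 3.

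Pax6, a paired-box factor of the forebrain, eye and ventral neural tube and a progenitor marker, had a pair of regions 52375 and 56598.5 bp from its start, chr2:105452150-105456941. The farther region scored 289.3, 346.4 and 604.1 and the nearer one 438.1, 281.1 and 455.9. Both were at or above percentile 91.2 in every replicate, a level that every region reached in few chains: with a bound of percentile 90, 3 of 56 neural regulator chains did, at Pax6, Fzd7 and Nkx6-1, beside 17 of 291 other chains. Which Pax6 region was higher differed between replicate 1 and the other replicates. Pax3 and Pax7, dorsal paired-box factors, each had an intronic pair. The Pax3 regions scored 294.6 to 388.5 in replicate 1, 219.3 to 303.4 in replicate 2 and 504.7 to 541.6 in replicate 3. The Pax7 regions were lower, at 137.4 to 214.9, 53.37 to 102.6 and 66.05 to 141.1.

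Other homeodomain genes had pairs at a distance. The Nkx6-1 region 143772.5 bp from the gene scored 322.1, 272.2 and 442.4, and the one 141051 bp away 435.9, 331.3 and 509.9. Otx2, of the forebrain and midbrain, had its pair 83643 and 86676 bp away, and Gbx2, of the anterior hindbrain, had 1 region at its promoter and 1 across a gap of 11489 bp that was nearest to D130058E05Rik. Irx3 had 2 chains, of 3 regions 262804.5 to 270140 bp away and of 2 regions 17230.5 and 20208 bp away, and Msx3 had a pair 9137 and 12101 bp away. The higher Msx3 region scored 1126.5, 285.2 and 375.2. Fezf2, a zinc finger factor of cortical projection neurons, was nearest to a pair of regions inside an intron of Cadps, 43452 and 47852.5 bp away. Rfx4 had 1 pair at its own promoter and in an intron, and 1 in introns of Polr3b, 45007 and 47731.5 bp away, and the Rfx4 promoter region scored 830.0, 262.9 and 336.3. Zfhx3, Pbx3, Gli2, Rara and Sall4 made up the rest of the patterning list. Sall4 had 2 chains with 5 regions over 75036 bp.

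Chains at bHLH, Hes and related genes were few. Hes5, a repressor induced by Notch and a progenitor marker, had 3 regions in chr4:154330866-154335050, of which the promoter region scored 263.4, 78.99 and 80.18. The other Hes5 regions scored 63.79 and 53.98 in replicate 1, 58.42 and 68.02 in replicate 2 and 70.34 and 77.89 in replicate 3, so the promoter was 4.13 times the next region in replicate 1 but 1.16 and 1.03 times in replicates 2 and 3. Insm1, a zinc finger factor of newborn neurons, had a pair with both regions at its promoter. The region closer to the start scored 963.0, 472.4 and 776.3 and its neighbour 54.47, 66.94 and 73.98. The Olig1 pair consisted of multi-copy sequence (100%) and is counted in that class.

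**Figure D2:**
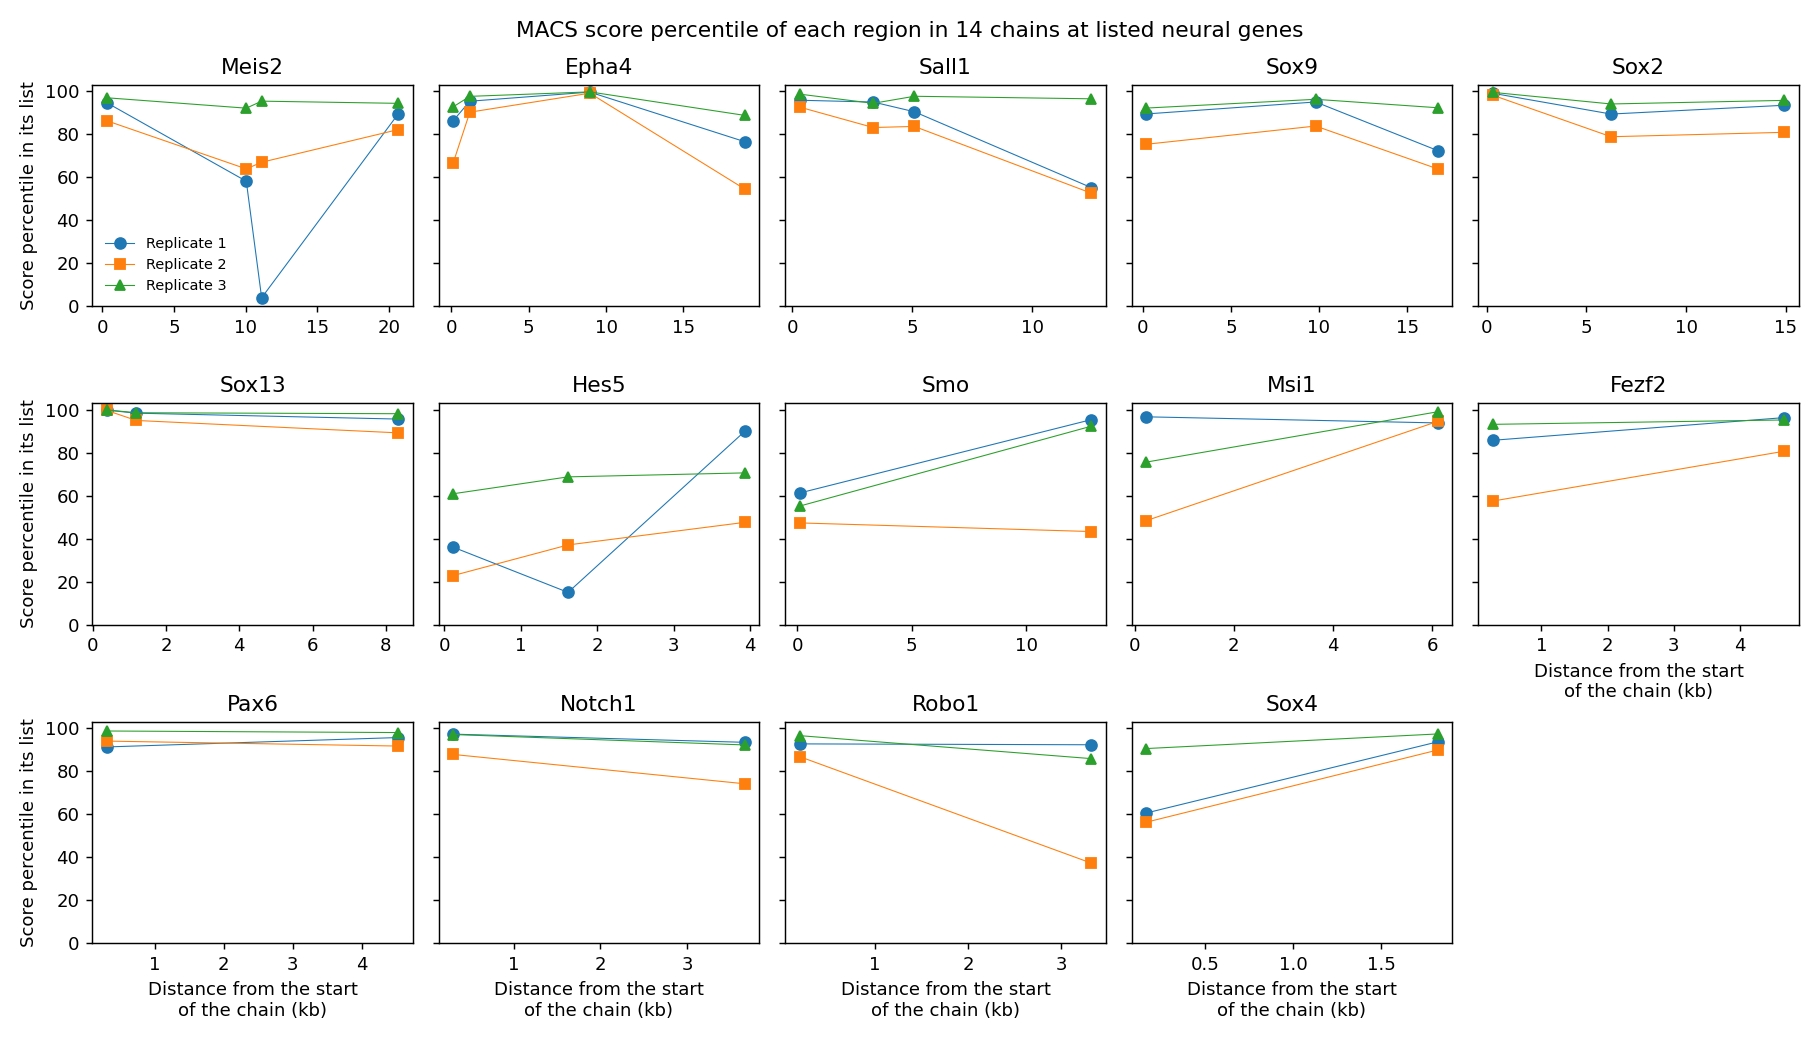
Score percentile in the list of its own replicate (y axis) of each region in 14 chains at genes of the neural lists, by distance of the middle of the region from the start of the chain in kb (x axis). Symbols and colours mark the 3 replicates and thin lines join the regions of 1 replicate. The highest region is the same in every replicate at Epha4, Sox9, Sox2 and Sox13 but not at Pax6.

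Among signalling genes, chains lay at genes of Eph receptors and their ephrin ligands, which guide axons and keep cells apart. Epha4 had 3 chains with 9 regions over 161.7 kb. The first, chr1:77490627-77509749, had 4 intronic regions with scores in the order of position of 215.1, 429.0, 1510.1 and 144.7 in replicate 1, of 111.8, 257.3, 852.0 and 88.41 in replicate 2, and of 188.9, 423.1, 1421.3 and 137.2 in replicate 3. The third region was the top in each replicate, 3.52, 3.31 and 3.36 times the next, and the order of the 4 was the same in all replicates. The second Epha4 chain was an intronic pair 73450 and 74423.5 bp from the start and the other held 3 intergenic regions 82664.5 to 86726.5 bp away, with 848.9 as the highest score in replicate 3. Efnb2, which encodes an ephrin-B ligand, had 3 chains with 6 regions over 168.7 kb, and the top one, in its body, scored 1027.7, 576.3 and 1084.3. The pairs at Ephb1, Epha3 and Efna5 lay in introns of Ephb1 and in intergenic sequence beside the others. The Ephb1 pair scored 661.3, 505.8 and 898.8 in 1 region, and 518.5, 129.2 and 227.6 in the other.

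In the Notch pathway, chains lay at the receptor gene Notch1, the ligand gene Jag1 and Lfng and Mfng, whose products add sugars to Notch. Both Notch1 regions lay inside the gene. One was at the promoter of an internal transcript, 287 bp from its start, and scored 347.3, 132.9 and 176.6, and the other, 3070 bp from such a start, scored 570.4, 223.3 and 350.2, higher in every replicate. The Jag1 pair was intronic and low, at 64.56 to 116.9, 53.37 to 104.9 and 75.45 to 169.8, and each of its regions held a POU octamer. Lfng had 2 intronic regions that were close in replicate 1 (493.8 and 435.9) and apart in replicate 2 (199.4 and 54.56) and replicate 3 (330.6 and 67.77).

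Chains of the Hedgehog pathway lay at the receptor gene Ptch1, the co-receptor gene Gas1, the transducer gene Smo and the effector gene Gli2. The Smo pair joined a promoter region to an intronic one across 12188 bp. The intronic Smo region scored 427.2, 74.24 and 179.8 and the promoter region 96.71, 78.73 and 66.44, so their order differed in replicate 2. The Gas1 promoter region scored 178.4, 82.62 and 132.1, below the region 6167.5 bp away in each replicate (428.3, 121.6 and 218.4). Wnt genes with chains were the ligand gene Wnt8a, the receptor genes Fzd2 and Fzd7 and the genes of the secreted inhibitors Sfrp1 and Dkk1. The Fzd7 region 67357.5 bp from the gene scored 777.4, 298.7 and 561.3, and the one 58864 bp away 662.0, 376.7 and 685.4. Both Fzd2 regions were at its promoter. Wnt8a had 3 regions, 2 of them 8451.5 and 9505.5 bp from its start and the third nearest to Nme5.

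Among FGF genes, Spry2, a feedback inhibitor, had a pair with 1 of the highest scores of the neural lists, 2777.9, 1326.8 and 2561.2, and a second region of 317.4, 80.57 and 316.3. Fgfr2 had an intronic region and a promoter region 12118 bp apart. A second pair lies within the annotated body of Fgfr2, which spans 137305965 to 140315033 on chromosome 7, but is nearest to Plekha1. The guidance genes Slit3 and Robo1, a ligand and its receptor, had a pair each. The Slit3 regions were intronic and scored from 51.59 to 110.0 over the 3 replicates. The Robo1 pair lay 454339 and 457475.5 bp from its annotated start and scored 325.0, 210.7 and 310.4, and 313.9, 68.12 and 117.7. Msi1, an RNA-binding protein of progenitors, had a pair 25125.5 and 31002.5 bp away. Its farther region scored highest in replicate 1 (526.9 beside 363.5) and its nearer region in replicates 2 and 3 (367.4 and 739.7 beside 80.21 and 88.06).

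Over the 56 neural regulator chains, 24 were wholly intergenic, 17 wholly intronic, and 2, at Insm1 and Fzd2, wholly at promoters. The shares were 42.9%, 30.4% and 3.57%, beside 43.3%, 24.1% and 9.62% of other chains. A promoter region was joined to a region elsewhere in 11. All regions of a chain shared 1 nearest gene in 54 of 56 chains (96.4%) and in 263 of 291 other chains (90.4%). The region with the top score was the same in every replicate in 43 of 56 neural regulator chains (76.8%, interval 64.2 to 85.9%), in 189 of 291 other chains (65.0%), in 46 of 76 mostly multi-copy chains (60.5%) and in 4 of 12 histone chains. These classes differ in chain size, and among chains of 2 regions the shares were 72.7% in neural regulator chains (32 of 44), 65.9% in other chains (162 of 246) and 72.5% in mostly multi-copy chains (37 of 51). Where regions of a chain tied for the top score, the first by position was taken as the top. Of the listed genes, 6 had more than 1 chain, Epha4 and Efnb2 with 3 and Irx3, Sall4, Fgfr2 and Rfx4 with 2. The second Fgfr2 chain is counted because it lies within the annotated body of Fgfr2, although its nearest gene is Plekha1. Some neural regulator chains were pairs of close regions and were lost when regions under 1000 bp apart were joined first. These were the only chains at Insm1, Fzd2, Gli2, Lfng, Fgfr1 and Efna5, and 1 of the chains each of Epha4 (gap 491 bp), Fgfr2 (772 bp) and Sall4 (1 bp).

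Histone genes were marked by a dense set of chains on chromosomes 13 and 3. Of 67 annotated genes of the histone clusters, which code for the core and linker histones of replicating cells, 54 (80.6%, interval 69.6 to 88.3%) were hosted by or nearest to a chain, and 5 were nearest to single regions alone. In the 12 histone chains, 62 of 65 regions had their middle within 2000 bp of a histone gene start. The largest, chr13:23608990-23677654, had 18 regions over 68665 bp, the widest span of all chains, with 14 histone genes. Its scores had a lowest, median and highest value of 55.89, 306.0 and 793.2 in replicate 1. The same values were 69.88, 193.3 and 570.6 in replicate 2 and 68.56, 411.1 and 960.3 in replicate 3. Further chains of 8, 7 and 6 regions on chromosome 13 held 9, 5 and 5 histone genes, and a chain of 5 regions on chromosome 3 held Hist2h2aa1, Hist2h2aa2 and Hist2h3c1. The top region of the chain of 7 lay at Hist1h4j and scored 971.7, 767.8 and 1595.0.

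Histone regions had median score percentiles of 93.8, 87.4 and 97.8 in replicates 1, 2 and 3, against 88.3, 70.6 and 94.2 in neural regulator chains. By sequence, 28 of the 65 histone regions (43.1%) were mostly multi-copy. The words AACAAA or AACAAT occurred in 15.4% of windows of 200 bp at the middle of histone regions and in 37.5% of windows 2000 bp to each side.

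Of the 76 mostly multi-copy chains, 25 held 3 or more regions. The chain with the most regions, chr6:47689840-47722806, had 21 regions nearest to Pdia4, and another of 18, chr6:47605040-47636115, was nearest to Ezh2. Their 50-base words were repeated for 94.8% and 97.8%. In RefSeq, on assembly GRCm38.p6, the genes between Ezh2 and Pdia4 include Rn4.5s, given there as an rRNA gene. The 13-region chain chr4:88419028-88451648 covered Ifnz and its copies, interferon genes, with all regions at promoters. A chain of 10 regions lay between Hrh1 and Atg7, and a chain of 7 at Phf10 and Tcte3 on chromosome 17 spanned 64854 bp.

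In 8 of these chains, regions shared the same scores. In the chain at Ifnz, 8 of 13 regions had scores of exactly 130.4, 78.33 and 123.1, a width of 107 bp, 1 sequence and a spacing of 2910 to 2937 bp. In the chain of 18 between Ezh2 and Pdia4, 8 regions scored 135.4, 75.2 and 136.5, had 1 sequence of 116 bp and were 4308 to 4340 bp apart. Regions with the same 3 scores as another of their chain numbered 51 of 260 (19.6%) in mostly multi-copy chains, and 0 of 127, 0 of 639 and 0 of 65 in neural regulator, other and histone chains. How the aligner placed reads with several possible positions is not given in the sources used here, and its part in these equal scores was not tested. Counting such regions once left 435 chains.

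**Figure D3:**
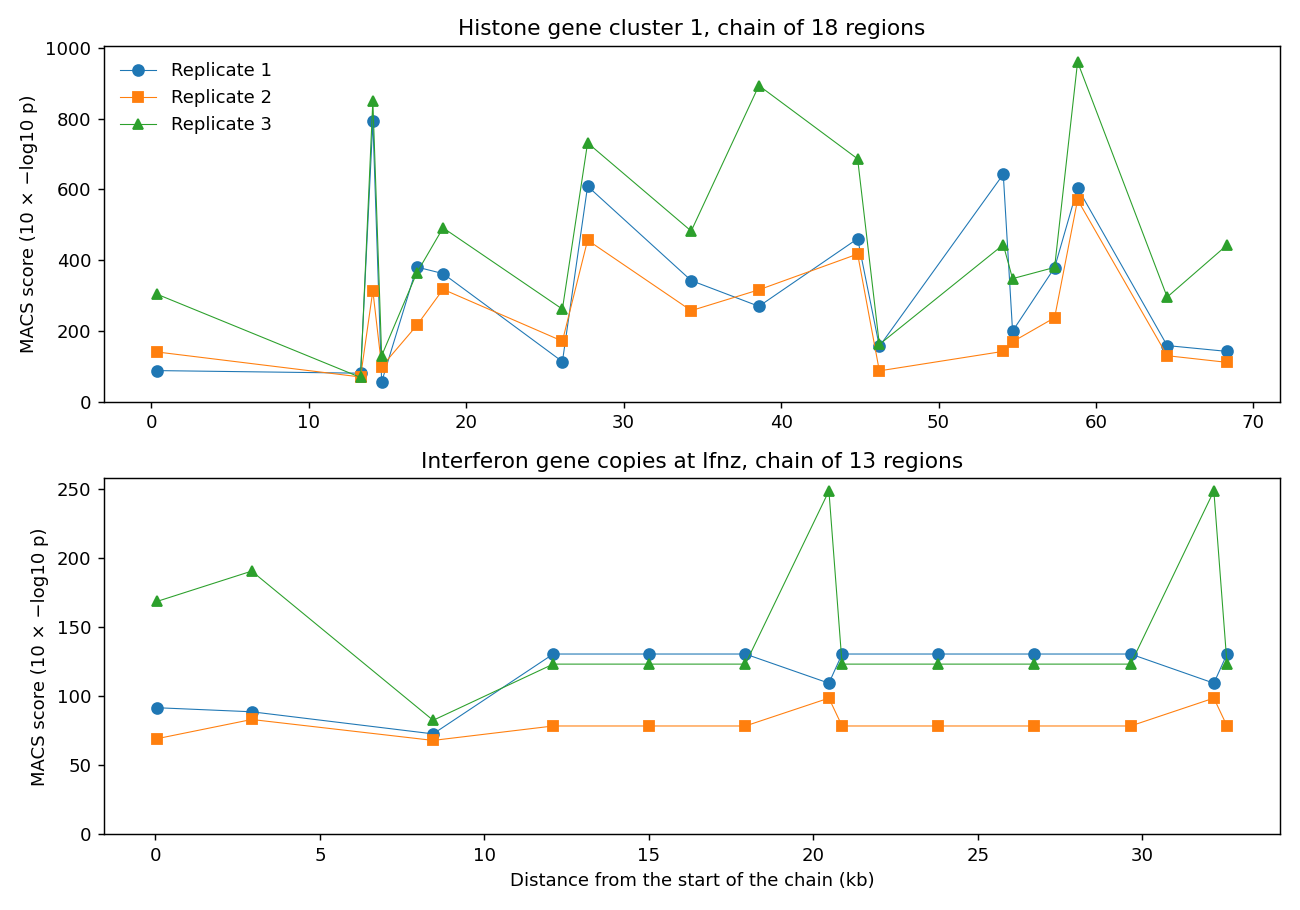
MACS score (y axis) of each region by distance from the start of the chain in kb (x axis), for the histone chain of 18 regions (top) and the chain of 13 regions at Ifnz (bottom), with symbols and colours for the 3 replicates. Scores vary from region to region in the histone chain, whereas 8 regions at Ifnz share scores of 130.4, 78.33 and 123.1.

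Genes of spliceosomal and nucleolar RNAs formed a further set. An annotated small RNA gene overlapped a region in 20 of 435 chains, and 39 of 1091 chained regions (3.57%) held one, against 29 of 4267 single regions (0.680%). In 30 of the 39 the gene was an snRNA, part of the spliceosome or its relatives. The chain chr12:55810766-55840035 had 6 regions, each with a U1 gene, and scored at least 2316.1, 1681.5 and 3100.0 in replicates 1, 2 and 3. A chain of 5 regions between Mreg and Pecr held 4 snRNA genes and Tex14 hosted 3 chains with U1 or U3 genes. The paired U3 regions of Tex14 had 48.3 to 64.5% repeated words. They scored at least 2355.1 and 1958.9 in replicates 1 and 2 and 3100.0 in replicate 3, all at or above percentile 99.8.

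The 291 other chains, which had no listed neural or histone gene and no majority of repeated words, held at most 5 regions. Those with 5 lay between Mreg and Pecr, between Osbp and Olfr1423 and in Pcdh19, the gene of a protocadherin, an adhesion protein of the nervous system. Pcdh19 had 3 chains with 9 regions over 98.9 kb. The 5 regions of the first, chrX:130215628-130221615, lay 163 to 4630 bp from an annotated start, all inside the gene, and the top one scored 1234.2, 917.1 and 2571.1. Clybl hosted 4 intronic regions and Spaca7 was nearest to 4, the latter 68115.5 to 70578 bp away within a span of 3056 bp. The top Spaca7 region differed between replicates, with highest scores of 1012.0, 629.1 and 1204.1.

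The widest gaps kept by the chaining distance were 12456 bp at Sulf1, 12455 bp between Phf10 and Gm3435 and again between Gm3435 and Tcte3, 12437 bp in the histone chain of 18 and 12423 bp at Ptn. Just over it were gaps of 12526 bp between Fcgr4 and Fcgr3, 12636 bp at Ghrh, 12651 bp between 2 of the chains of Tex14 and 12707 bp between Eapp and Gm16382.

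Promoters, within 2000 bp of a protein-coding transcript start, held 23.0% of chained and 18.2% of single regions, introns 25.02% and 29.2%, exons 1.65% and 1.22%, and intergenic sequence 50.3% and 51.4%. Without mostly multi-copy regions the promoter shares were 20.3% (interval 17.7 to 23.2%) and 19.3% (18.1 to 20.6%). Chained regions were nearer to a start, with a median distance of 15815.5 bp against 26005 bp, and in unique sequence the medians were 16670.8 bp and 26429.2 bp. Mostly multi-copy regions were 25.4% of chained and 11.98% of single regions.

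The scores of chained and single regions were close. The median percentile was 84.5 and 82.0 in replicate 1, 66.3 and 64.9 in replicate 2, and 92.8 in both groups of replicate 3. Within unique sequence the medians were 86.6 and 83.2, 69.7 and 66.2, and 93.5 and 93.1. Peaks that missed 1 replicate were also common around chains: a region shared by exactly 2 replicates lay within the chaining distance of 32.2% of chained regions and of 447 of 4267 single regions (10.5%). The share was 21.3% in neural regulator chains, 22.9% in other chains, 53.8% in histone chains and 55.0% in mostly multi-copy chains, and in unique sequence it was 24.8% of chained and 9.98% of single regions.

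SOX words were less frequent in chained than in single regions, and the gap was smaller in unique sequence. In windows of 200 bp at the middle of a region, AACAAA or AACAAT occurred in 436 of 1091 chained regions (40.0%, interval 37.1 to 42.9%) and in 2132 of 4267 single regions (49.96%, interval 48.5 to 51.5%). Windows of the same length 2000 bp to each side held them in 29.8% and 32.3%. In unique sequence the shares were 48.3% (interval 44.9 to 51.7%) and 53.6% (52.0 to 55.2%), and in multi-copy sequence 15.5% and 23.3%, below the flanks of 29.1% and 31.4%. In neural regulator chains the share was 47.2% at the middle and 21.6% in the flanks, and in single regions at listed neural genes 58.0% and 26.95%. The spelling GACAAA or GACAAT gave 28.5% and 34.5% in chained and single regions and 37.0% in neural regulator chains, where the flanks had 18.7%.

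The POU octamers ATGCAAAT and ATGCTAAT were found in 8.16% of chained and 9.09% of single windows, with 2.44% and 2.09% in flanks. In neural regulator chains they were in 11.8% (15 of 127, interval 7.29 to 18.6%), beside 11.5% of single regions at listed neural genes (31 of 269). The SOX/POU word occurred in 5.13% and 6.80% of chained and single windows and in 0.439% and 0.153% of flanks. Over whole regions, it was present in 10 of 56 neural regulator chains (17.9%, interval 10 to 29.8%), 36 of 291 other chains (12.4%, interval 9.07 to 16.7%) and 6 of 76 mostly multi-copy chains. The neural regulator chains with it were at Epha4, Sall1, Sox9, Zfhx3, Pax3, Jag1, Pax6, Notch1, Rfx4 and Gli2. Only at Sox9 did more than 1 region of the chain hold it, and no chain of this class had it in every region. A match of these letters is a description of the sequence and not a measured site.

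**Figure D4:**
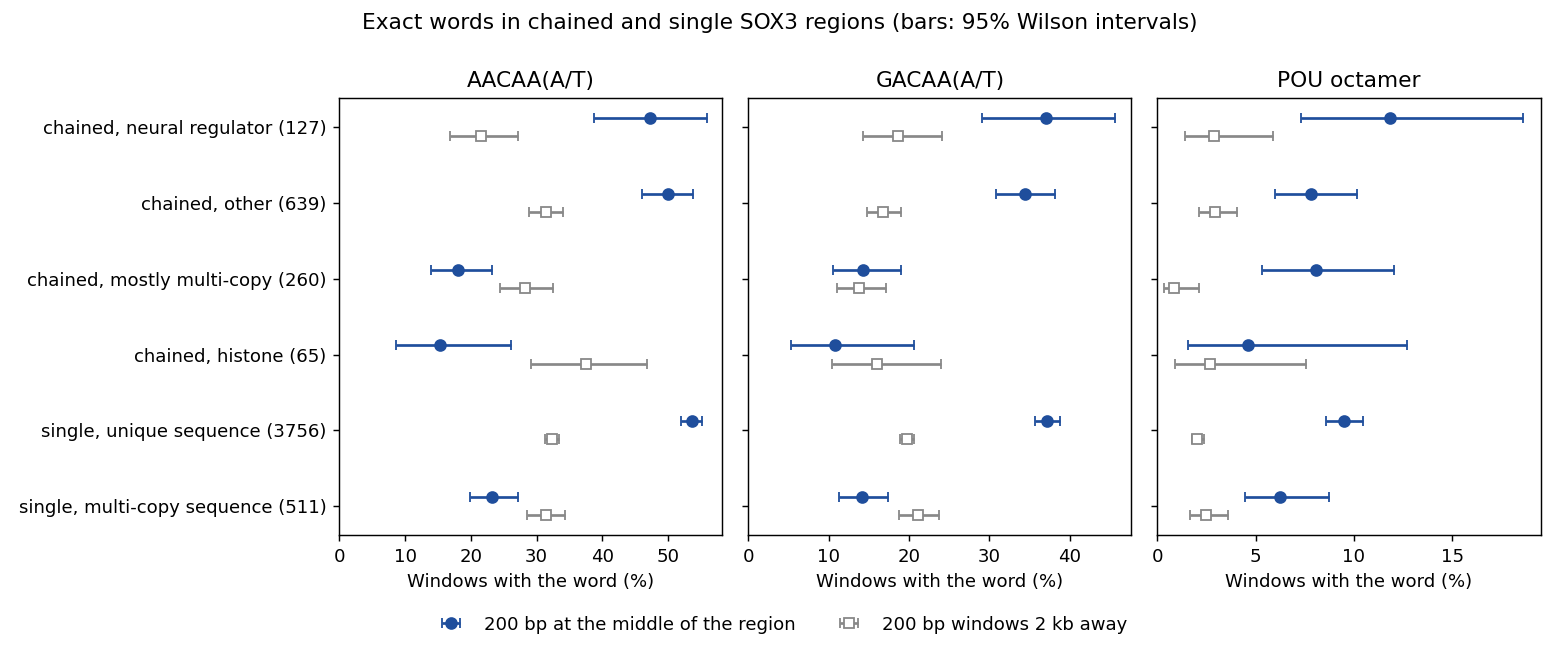
Share of windows of 200 bp with an exact word (x axis, percent) for the classes of chained regions and for single regions (y axis, number of regions in brackets), in 3 panels for AACAAA or AACAAT, for GACAAA or GACAAT and for the POU octamer. Filled circles are windows at the middle of regions, open squares windows 2000 bp away, and bars 95% Wilson intervals. In neural regulator and other chains the middle lies above the flanks in every panel, whereas for the first word it lies below in histone and mostly multi-copy chains.

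Chains were spread unevenly over chromosomes. Chromosomes 1 and 8 held 56 and 43 chains, with 17 of the 56 neural regulator chains between them. These chromosomes make up 12.46% of the length of the reference and held 15.7, 19.1 and 22.5% of the peaks of replicates 1, 2 and 3. Away from them, 858 of 4352 common regions (19.7%) lay in chains and 39 of 336 chains (11.6%) were neural regulator chains. The input was not analysed here, and the part of chromosome copy number in the peaks was not tested.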

How the data were processed

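Peaks of 3 biological replicates of SOX3 ChIP-Seq in NP cells were analysed. The input was not analysed here. The authors aligned reads to mm9 with Bowtie (version 1.0.0 in the submitters' processing notes) and used MACS, with the input as control, to call peaks per replicate at a p-value threshold of 1e-05. The deposited score of a peak is 10 times the negative log10 of its p-value, with no normalization between replicates. Depth is unknown.

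From the peaks, common regions were made by overlap of at least 1 bp after merging and chained by their gaps. Genes came from GENCODE vM1 (22380 protein-coding genes) on NCBIM37, the same assembly as mm9, and no peak passed a chromosome end. Repeated sequence was counted by the 50-base words of the whole reference on both strands. Words were searched in windows of 200 bp and in flanking windows 2000 bp away that met no common region. Intervals of shares are 95% Wilson intervals and those of medians are from order statistics. They cover counting error only, and regions of a chain are not independent. No test was made, since the chains were chosen by the peaks and there is 1 ChIP group.

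Chains named are the 10 with the most regions, the 5 widest, the 5 with most regions of each class, those at progenitor markers or genes that the study names, and the pairs nearest to the chaining distance. The other chains at listed neural genes, and those with small RNA genes, were named after their values were seen. A few genes are not reported here. The members and gene lists were chosen with earlier results of these data known. The merging and chaining steps were tested on simulated data with gaps set clear of the chaining distance, where 400 of 400 planted groups were recovered. Classes and nearest genes were not part of that simulation. Scripts ran in Python 3.11.15 (scipy 1.17.1, numpy 2.4.6, matplotlib 3.10.9, numba 0.67.0).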

Additional observations from a re-analysis of the deposited data

How the results depend on the processing

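No paired analysis was possible because the 3 replicates form 1 group and the input was not analysed here. The number of chains (435) became 172 with every peak at a p-value of 1e-10 or less, 289 with equal numbers of peaks, and 449 to 781 with 1 replicate left out. The share of common regions in chains (20.4%) was 13.7% at a chaining distance of 5 kb, 27.1% at 25 kb, 15.3% at 1e-10, 19.2% with a reciprocal overlap of 50%, 18.1% with equal numbers, 17.4% without mostly multi-copy regions and 20.6 to 25.1% with 1 replicate left out. The median span was 2693 bp at 5 kb, 10655.5 bp at 25 kb and 5079 to 5591 bp with 1 replicate left out. The share of histone or mostly multi-copy chains (20.2%) was 27.6% at 5 kb, 16.3% at 25 kb and 18.3 to 27.2% with 1 replicate left out. The share of AACAAA or AACAAT in chained regions was 48.2% without mostly multi-copy regions. Median percentiles in replicates 1, 2 and 3 were 76.0, 76.9 and 74.99 with equal numbers and 86.9, 70.1 and 93.6 without mostly multi-copy regions. Replicate 3 had 84.3 at 1e-10. With 1 other replicate left out the medians were 76.5 to 84.0, 55.7 to 65.5 and 89.0 to 90.7. The causes of these moves were not tested beyond what each setting itself removes or joins. The share of neural regulator chains stayed between 10.2 and 15.9% in every setting, within the interval of its main value.

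Of 48 listed genes at neural regulator chains, 48 were among the 69 found without replicate 2, but 21 were left at 1e-10. Chosen after seeing the data, joining regions under 1000 bp apart before chaining gave 329 chains, 14.96% of regions in chains, a median span of 7579 bp, 16.7% histone or mostly multi-copy chains and a median percentile of 86.0 in replicate 1, and 42 of the 48 genes remained. Without read counts, close regions cannot be told apart from 1 broad site.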

Other observations

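Some chains of the other class lay near neural genes that were not the nearest gene. How often single regions or other starts lie as close was not computed. A set of 3 regions within 2748 bp was nearest to Crabp2, which codes for a retinoic acid binding protein, but ended 10256 bp from a start of Nes, the gene of the intermediate filament nestin of progenitors. Their lowest and highest scores were 184.1 and 307.3 in replicate 1, 74.77 and 168.6 in replicate 2, and 189.8 and 243.4 in replicate 3. A pair nearest to Gm5089 lay 32027 and 47388 bp from starts of Zic5 and Zic2, zinc finger genes of the dorsal neural tube, and its higher region scored 1130.5, 539.1 and 1041.3. Another pair, nearest to Htatip2, lay 62778 bp from Dbx1, a homeodomain gene of interneuron progenitors, with highest scores of 363.6, 150.0 and 238.6. Vangl2, a planar cell polarity gene needed for neural tube closure, hosted 3 regions, 1 of them at its promoter, 29980 bp from Nhlh1. These chains were picked after their values were seen.

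Of 17 annotated pluripotency genes, 3 were hosted by or nearest to a chain (Pou5f1, Klf2 and Lin28a), which is 17.6% (interval 6.19 to 41.0%) beside 2.40% of all protein-coding symbols. Of 29 annotated markers of other lineages, 0 were, with an interval of up to 11.7% that includes the 2.40% of all symbols. Of these markers, 8 were nearest to single regions alone, beside 3175 of all 22238 symbols.

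Peaks of replicates 1 and 3 alone added chains at further listed genes. Without replicate 2, the shortest list, neural regulator chains also lay at genes that included Cdh6, Cyp26c1, Dll1, Fgf15, Fzd8, Id2, Irx2, Irx5, Lef1, Lhx2, Meis1, Msi2, Mycl1, Npas3, Ntn1, Onecut2, Pax8, Rorb, Sema6a and Zeb2.

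In mostly multi-copy chains the words stood differently to their flanks. The POU octamers occurred in 21 of 260 windows (8.08%, interval 5.34 to 12.03%) against 4 of 478 flanks (0.837%), and those 21 windows lay in 19 chains. Windows of 200 bp can reach past the narrow regions of this class, whose widths had a lower quartile of 183 bp. Over whole regions, 17 of 76 chains held an octamer and 6 held the SOX/POU word. The SOX/POU word occurred in 14 windows (5.38%) against 0.418% of flanks, GACAAA or GACAAT in 14.2% against 13.8%, and AACAAA or AACAAT in 18.1% against 28.2%. Whether reads placed at several copies bear on these regions was not tested.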
